A study of Mus musculus with 42 samples.

Results

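Pericentral Wnt target genes are hepatocyte genes that are transcribed mainly around the central vein of the liver lobule, where Wnt signaling is strongest. The 9 genes described here, Glul, Oat, Axin2, Lgr5, Tbx3, Rhbg, Slc1a2, Rnf43 and Znrf3, were chosen by name as established genes of this kind, with no threshold on their values. Earlier results of these data were known at that time. All 9 were found among the 19756 genes listed in at least 1 of the 6 deposited tables, and all 9 were listed in each table. Whole livers of 42 male C57BL/6J mice were sequenced, with 7 mice in each of 6 groups and 1 library per mouse. The mice were wildtype (WT) or lacked ChemR23, the receptor for the lipid mediator resolvin E1 (RvE1) that is encoded by Cmklr1, throughout the body. The knockout (KO) had been made with CRISPR/Cas9, and WT littermates served as controls. WT lean and KO lean mice ate a diet with 10% of its energy as fat, and WT obese and KO obese mice ate a high fat diet with 60%, in both cases from 6 weeks of age for 15 weeks. All of these mice received an ethanol and PBS vehicle intraperitoneally on 4 consecutive days, whereas WT obese+RvE1 and KO obese+RvE1 mice ate the high fat diet and received 300 ng RvE1 on the same days. Livers were taken on day 5 after a fast.

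Wnt ligands and R-spondins released by endothelial cells of the central vein bind Frizzled receptors with the co-receptors Lrp5 and Lrp6 and the R-spondin receptors Lgr4 and Lgr5 on the neighboring hepatocytes. This stops the destruction complex of Axin, Apc and Gsk3 from marking beta-catenin for degradation, and beta-catenin then activates genes together with TCF/LEF factors. Among the genes it activates are the enzymes and transporters of pericentral glutamine and ammonium handling and several regulators of the pathway itself. Periportal hepatocytes, at the other end of the lobule, carry out urea synthesis and gluconeogenesis.

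Between 15992525 and 43841120 reads per library fell on the listed genes, with a median of 24298289. Group medians ran from 19796716 in WT lean to 31121723 in WT obese+RvE1 mice. Cmklr1 itself checked the labels. Its median normalized count was 62.0 in WT lean and 10.7 in KO lean mice of the same table (Log2FC = -2.23, BH-adjusted p-value = 0.000492, limma). In obese mice the medians were 51.5 in WT and 14.2 in KO mice (Log2FC = -2.04, adjusted p-value = 0.0339). For lean and for obese mice, 7 of 7 KO mice lay below all WT mice. The 5 hepatocyte markers Alb, Ttr, Apoa1, Ahsg and Fgb were listed in all 6 tables.

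Promoter sequences from RefSeq (GRCm38.p6) were at hand for 5 of the 9 genes (Glul, Oat, Axin2, Slc1a2 and Rnf43, 6 promoters in all). The stretches upstream of the start sites of Glul, Oat and Slc1a2 are shown because these are the 3 genes that passed the test for the high fat diet in KO mice. Each is written 5′ to 3′ on the strand of its gene. Glul spans 250 bases at chr1:153899679-153899928 on the plus strand, Oat 250 bases at chr7:132576399-132576648 on the minus strand, and Slc1a2 168 bases at chr2:102706188-102706355 on the plus strand. The Slc1a2 start site lies inside the annotated gene, and its stretch stops ahead of the next annotated exon. Capitals mark a match to the 7-letter core CTTTGAT that TCF/LEF factors bind, which reads ATCAAAG on the other strand.
Glul upstream: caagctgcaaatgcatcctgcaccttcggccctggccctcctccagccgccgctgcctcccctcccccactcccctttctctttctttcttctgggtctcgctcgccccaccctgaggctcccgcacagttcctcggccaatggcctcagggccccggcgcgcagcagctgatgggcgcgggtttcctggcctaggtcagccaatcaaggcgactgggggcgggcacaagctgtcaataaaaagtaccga
Oat upstream: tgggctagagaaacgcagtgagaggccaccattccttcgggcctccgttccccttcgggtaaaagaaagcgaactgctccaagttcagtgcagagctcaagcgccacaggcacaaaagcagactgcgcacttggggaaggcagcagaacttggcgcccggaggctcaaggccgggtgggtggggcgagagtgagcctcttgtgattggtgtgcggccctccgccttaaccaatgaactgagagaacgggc
Slc1a2 upstream: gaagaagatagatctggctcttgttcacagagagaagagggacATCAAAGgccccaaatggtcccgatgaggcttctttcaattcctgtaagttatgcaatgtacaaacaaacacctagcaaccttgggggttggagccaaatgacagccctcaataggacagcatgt

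Searched on both strands of 300 bases, 250 before and 50 after each start, the core was found in 1 of the 6 promoters. This was the Slc1a2 promoter, on the other strand, with its first base 207 bases upstream of the start. Of all 32851 promoters in the RefSeq set, 1225 (3.73%) held the core. A match describes letters only, and a window without a match says nothing of sites elsewhere in a gene.

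The 9 genes differed widely in level. Put on a common scale for the 42 libraries and divided by exon length, the median normalized count per kilobase was 7563 for Oat, ornithine aminotransferase, and 7344 for Glul, glutamine synthetase, which joins ammonium to glutamate. Slc1a2, a high-affinity glutamate transporter, followed at 564.4. Tbx3, a T-box transcription factor, had 195.3. The ubiquitin ligases Rnf43 and Znrf3, which remove Frizzled receptors from the cell surface, had 94.1 and 55.9. Rhbg, an ammonium transporter, had 53.8. Axin2, the feedback member of the Axin scaffold family, had 41.8, and the R-spondin receptor Lgr5 had 16.0. In this order Glul and Slc1a2 were the only neighbors whose ranges over 42 mice did not overlap, with a lowest Glul level of 3170 and a highest Slc1a2 level of 748.7. All other neighbors overlapped. The Rhbg level is uncertain, since 61.4% of its 1937 exon bases also belong to Gm38392, an annotated gene on the same strand.

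**Figure D1:**
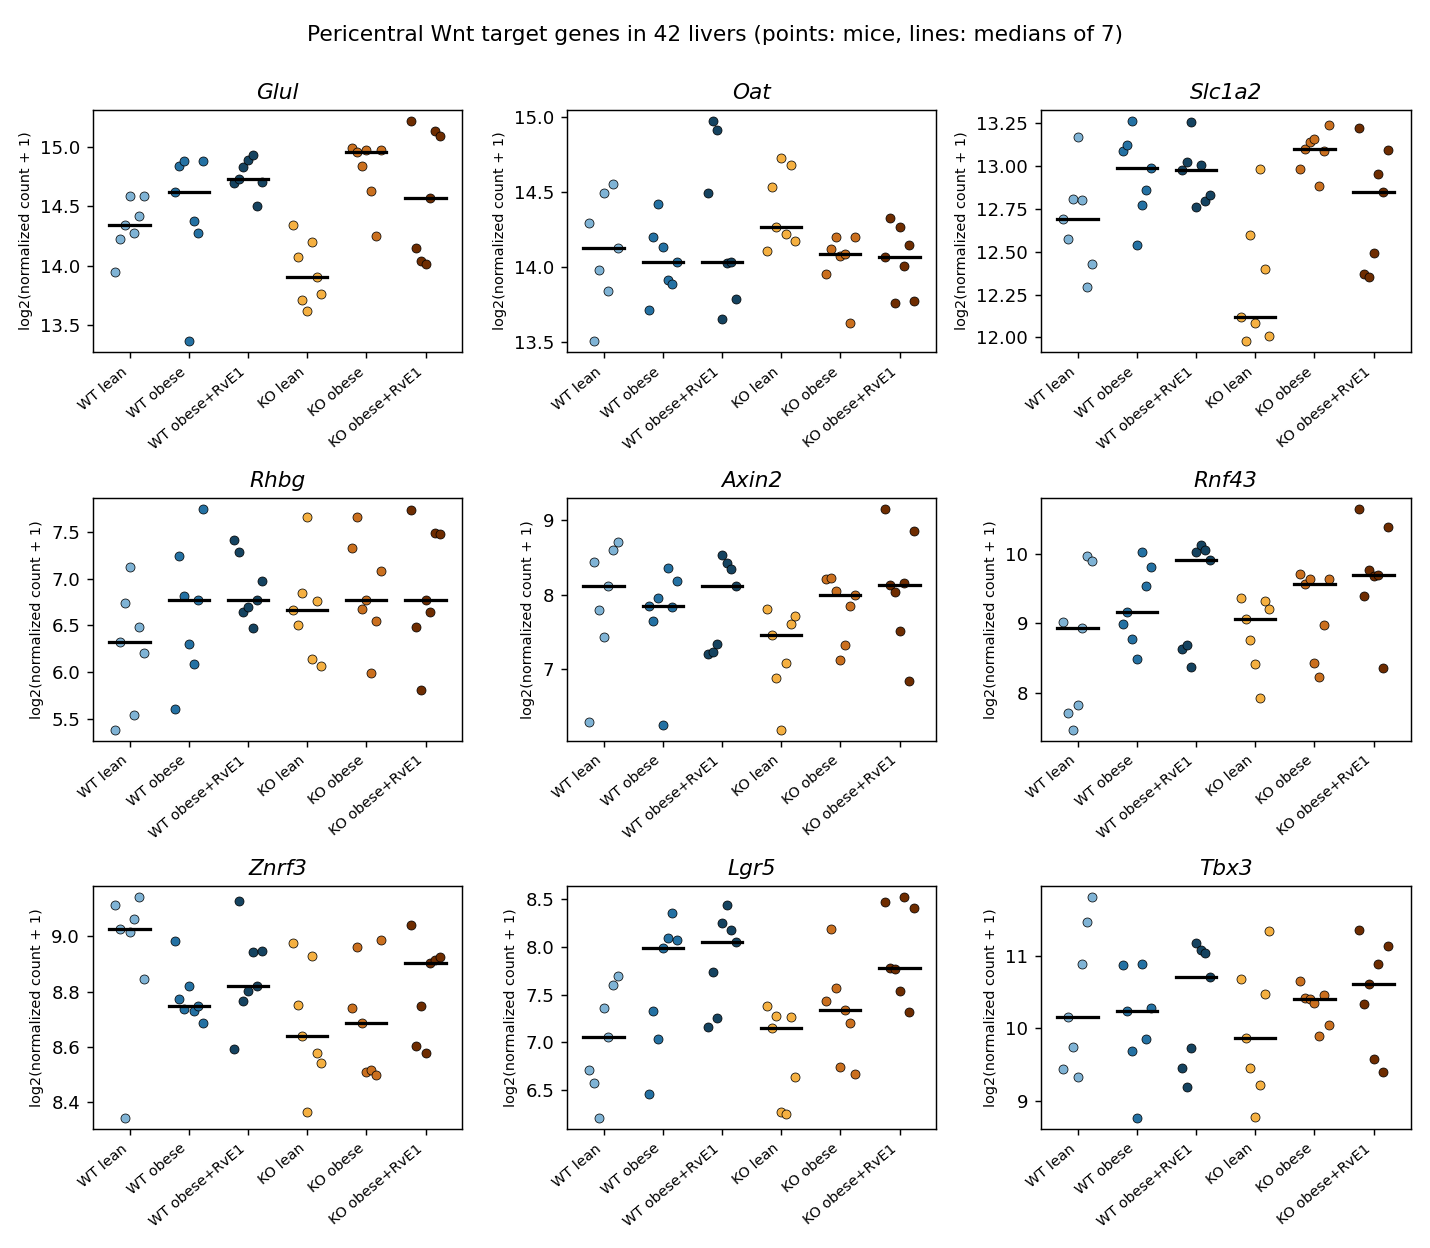
Normalized counts of the 9 genes in the 42 mice. Each panel shows 1 gene, each point 1 mouse and each horizontal line the median of 7 mice in a group, as log2(normalized count + 1) on a common scale for all libraries. In the Glul and Slc1a2 panels the KO lean mice have the lowest group median and the KO obese mice the highest, while the Znrf3 panel has the narrowest spread within groups.

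Obesity in WT mice was examined first. None of the 9 genes passed a BH-adjusted p-value of 0.1 in WT obese vs WT lean mice, although 878 of 14012 genes tested (6.27%) did. The number of the 9 genes was also 0 at an unadjusted p-value under 0.05, by edgeR and by DESeq2. Log2FC values here are differences in the mean of log2(normalized count + 1), tested with limma over all genes of the table, and they understate the change of genes with few reads.

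Glul had a lowest normalized count of 14136, a median of 18629 and a highest of 21986 in WT lean mice, against 9422, 22447 and 26903 in WT obese mice (Log2FC = 0.12 ± 0.21 SE, adjusted p-value = 0.818). A total of 4 WT obese mice lay above all WT lean mice and 1, replicate 4, lay below all of them. Without that mouse the Log2FC of Glul was 0.30 (adjusted p-value = 0.298). Slc1a2 ran from 4483 through a median of 5917 to 8208 in WT lean and from 5334 through 7249 to 8722 in WT obese mice (Log2FC = 0.26 ± 0.14, adjusted p-value = 0.342). The groups overlapped, with 6 of 7 obese mice above the lean median. Oat and Rhbg had Log2FC values of -0.08 (adjusted p-value = 0.849) and 0.39 (adjusted p-value = 0.562).

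Lgr5 showed the largest value of the 9 genes in this comparison. Its normalized counts were 65.5, 119 and 184 (lowest, median and highest) in WT lean and 77.5, 227 and 288 in WT obese mice, and 4 of 7 obese mice lay above all lean mice (Log2FC = 0.58 ± 0.30, 95% interval -0.04 to 1.21, adjusted p-value = 0.31). Rnf43 had a Log2FC of 0.56 ± 0.39 (adjusted p-value = 0.474). Znrf3 was below the lean median in 7 of 7 obese mice, yet the ranges overlapped in full (Log2FC = -0.16 ± 0.12, adjusted p-value = 0.504). Its lowest lean value was that of WT lean replicate 3. When 1 mouse was left out, its Log2FC lay between -0.26 and -0.13 and the adjusted p-value between 0.154 and 0.637. Axin2 and Tbx3 had wide ranges, from 69.4 to 372.3 and from 574.6 to 3207.3 in WT lean mice, and Log2FC values of -0.19 (adjusted p-value = 0.822) and -0.33 (adjusted p-value = 0.726).

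In KO mice, Glul and Slc1a2 were upregulated and Oat was downregulated with the high fat diet. These were 3 of the 9 genes, in a comparison in which 3422 of 14213 genes (24.1%) passed. The median Log2FC of the 9 genes was 0.35, against -0.00206 for all genes tested, and 8 of the 9 values were above 0. Of all genes tested, 49.8% were above 0. As the 9 values come from the same mice, they are not independent.

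Glul had normalized counts of 12849.8, 15622.9 and 21140.2 (lowest, median and highest) in KO lean mice and 19796.3, 32149.1 and 33086.2 in KO obese mice. A total of 6 of 7 KO obese mice lay above all KO lean mice, and the ratio of medians was 2.06 (Log2FC = 0.86 ± 0.15, 95% interval 0.53 to 1.18, adjusted p-value = 0.00425). Slc1a2 had 4079.31, 4534.11 and 8286.58 in KO lean and 7781.49, 8907.19 and 9874.71 in KO obese mice. For Slc1a2, 5 of 7 obese mice lay above all lean mice and the medians differed by a ratio of 1.96 (Log2FC = 0.78 ± 0.15, 95% interval 0.47 to 1.09, adjusted p-value = 0.00521). In bulk liver, a wider band of cells that express such genes and more RNA per cell cannot be told apart. Both calls held under every alternative processing (adjusted p-value between 2.33e-06 and 0.0275 for Glul and between 0.0001 and 0.0291 for Slc1a2) and without any 1 of the 14 mice.

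Oat moved the other way, from 17995.3, 20008.7 and 27692.7 in KO lean to 12861, 17945.8 and 19216 in KO obese mice, with 4 of 7 obese mice below all lean mice (Log2FC = -0.35 ± 0.14, adjusted p-value = 0.0928). This call was close to the threshold. When libraries were scaled to equal read totals, which moved the median Log2FC of all genes to 0.142, Oat was at -0.20 (adjusted p-value = 0.369), Glul at 1.00 and Slc1a2 at 0.92. The Oat call was also lost, with adjusted p-values between 0.102 and 0.184, without any 1 of KO lean replicates 2, 3, 4 and 6 or KO obese replicates 1, 2, 3, 5, 6 and 7.

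The other 6 genes did not pass the test in KO obese vs KO lean mice. Axin2 came nearest, with normalized counts of 73.3, 178 and 228 in KO lean and 143, 260 and 302 in KO obese mice. Its ranges overlapped, but 5 of 7 obese mice lay above all lean mice (Log2FC = 0.58 ± 0.24, adjusted p-value = 0.111). Axin2 passed with library quality weights (adjusted p-value = 0.0485), with DESeq2 (0.0866), and without KO lean replicate 1 (0.076), KO lean replicate 7 (0.0954), KO obese replicate 4 (0.0548) or KO obese replicate 5 (0.091). The Log2FC values of Lgr5, Tbx3, Rnf43, Rhbg and Znrf3 were 0.42, 0.35, 0.31, 0.20 and 0.02, with adjusted p-values between 0.244 and 0.929. For Znrf3 the 95% interval ran from -0.23 to 0.27. Tbx3 was above the lean median in 7 of 7 obese mice, within the lean range of 447 to 2656.

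Markers of some non-parenchymal cells also differed between these groups, where 24.1% of all genes passed. All 4 listed Kupffer cell markers of 5 were lower in KO obese mice (Vsig4, Timd4, Clec4f and Cd5l, with Vsig4 at -0.73 and Timd4 at -0.90). Their summed normalized counts were 5790, 7021 and 14110 (lowest, median and highest) among lean KO mice and 3397, 4100 and 4599 among obese KO mice, and 7 of 7 obese mice lay below all lean mice. The fifth, Adgre1, was listed in 0 tables. Of 5 sinusoidal endothelial markers 3 were lower (Fcgr2b, Gpr182 and Clec4g), with sums of 2831, 3949 and 5005 in lean and 2036, 2813 and 3719 in obese mice. Of 6 central vein endothelial markers only Cdh13 passed and was higher (0.61 ± 0.20). Of 5 stellate cell markers only Des passed and was lower (-0.59 ± 0.21), and 0 of 5 cholangiocyte markers passed. The 5 hepatocyte markers did not pass the test, with a median Log2FC of -0.04. The part of these cell types in the results for Glul, Slc1a2 and Oat was not tested.

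Genotype was then compared within each diet. Of the 9 genes, Glul was downregulated in KO lean vs WT lean mice, where 2123 of 13031 genes (16.3%) passed. This comparison and the previous one share the 7 KO lean libraries. Glul ran from 14703 through a median of 19357 to 22794 in WT lean and from 11652 through 14179 to 19214 in KO lean mice, and 4 of 7 KO mice lay below all WT mice (Log2FC = -0.40 ± 0.14, adjusted p-value = 0.0795). The Glul call was lost with the opening number of the mouse identifier as a random effect (adjusted p-value = 0.192). It was also lost, with adjusted p-values between 0.111 and 0.152, without any 1 of WT lean replicates 2, 3, 4, 5, 6 and 7 or KO lean replicates 2, 3, 4, 6 and 7. With that random effect, 3 genes in all passed in this comparison.

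Slc1a2 had 4662, 6154 and 8555 (lowest, median and highest) in WT lean and 3704, 4121 and 7549 in KO lean mice. A total of 4 of 7 KO mice lay below all WT mice, while KO lean replicate 5 was the only one above the WT median (Log2FC = -0.38 ± 0.17, adjusted p-value = 0.162). Without KO lean replicate 5 the Log2FC was -0.49 and passed (adjusted p-value = 0.029). With equal read totals, which put the median of all genes at -0.116, Slc1a2 also passed at -0.50 (adjusted p-value = 0.0506). Over all alternatives that kept every mouse, the adjusted p-value of Slc1a2 lay between 0.0154 and 0.247. Axin2 and Znrf3 were below the WT lean median in 7 of 7 KO mice each, with Log2FC values of -0.67 ± 0.34 (adjusted p-value = 0.212) and -0.26 ± 0.13 (adjusted p-value = 0.22). Axin2 passed without WT lean replicate 1 (adjusted p-value = 0.045) and by DESeq2 (0.0835), and Znrf3 passed without WT lean replicate 3 (0.0738). Oat, Rhbg, Rnf43, Lgr5 and Tbx3 had Log2FC values of 0.27, 0.40, 0.17, -0.15 and -0.44, with adjusted p-values between 0.318 and 0.813.

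Kupffer cell markers stood higher in KO lean than in WT lean mice as well. All 4 passed, and the sums were 2299, 3274 and 5450 in WT lean and 5275, 6376 and 12800 in KO lean mice, with 6 of 7 KO mice above all WT mice. Of 5 sinusoidal endothelial markers only Fcgr2b passed and was higher (0.64 ± 0.18). Of 6 central vein endothelial markers only Wnt2 passed and was higher (0.85 ± 0.22). Krt19 of 5 cholangiocyte markers (-0.62 ± 0.21) and Reln of 5 stellate cell markers (-0.49 ± 0.18) passed and were lower. The 5 hepatocyte markers did not pass, with a median Log2FC of -0.21 and 1 of 5 above 0. In this comparison 16.3% of all genes passed. The part of these cell types in the Glul result was not tested.

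In obese mice, none of the 9 genes passed between KO and WT mice by limma, edgeR or DESeq2, none had an unadjusted p-value under 0.05, and 2 of 14162 genes passed (0.0141%), with 319 at an unadjusted p-value under 0.05. Glul had 19086, 31171 and 31788 in KO obese mice against 10365, 24625 and 29516 in WT obese mice, and 4 of 7 KO mice lay above all WT mice (Log2FC = 0.34 ± 0.22, 95% interval -0.11 to 0.80, adjusted p-value = 1.00). Without WT obese replicate 4 the Glul Log2FC was 0.16. Slc1a2 and Oat had Log2FC values of 0.14 (95% interval -0.10 to 0.37) and -0.003 (-0.27 to 0.27). Lgr5 was below the WT obese median in 6 of 7 KO obese mice, with overlapping ranges (Log2FC = -0.31 ± 0.29). The remaining values lay between -0.08 and 0.24.

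Whether the diet acted differently in the genotypes was tested directly, as the Log2FC of KO mice minus that of WT mice. None of the 9 genes passed, and 1 of 13924 genes did (0.00718%). A total of 2553 genes had an unadjusted p-value under 0.05, and the numbers that passed were 1 with edgeR and 926 with DESeq2, of the 9 genes 0 and 1. Glul had the second largest difference of the 9, 0.74 ± 0.26 (95% interval 0.21 to 1.27, unadjusted p-value = 0.00808, adjusted p-value = 0.153). Slc1a2 had 0.52 ± 0.20 (95% interval 0.10 to 0.93, adjusted p-value = 0.182) and Axin2 0.77 ± 0.46 (95% interval -0.17 to 1.71, adjusted p-value = 0.375). The processing and the value of 1 mouse mattered here. Over the alternatives that kept every mouse, adjusted p-values lay between 0.0447 and 0.603 for Glul and between 0.0171 and 0.603 for Slc1a2. Glul and Slc1a2 both passed with library quality weights. Without KO lean replicate 5 the differences were 0.78 for Glul (adjusted p-value = 0.0683) and 0.63 for Slc1a2 (0.0381), so both passed. Without WT obese replicate 4 the Glul difference was 0.56 (adjusted p-value = 0.24). The other 6 genes lay between -0.27 and 0.67.

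RvE1 was compared with vehicle in obese mice of each genotype. None of the 9 genes passed in WT obese+RvE1 vs WT obese mice, where the number of genes that passed was 0 of 13085 (0%), with 795 at an unadjusted p-value under 0.05, 1 by edgeR and 25 by DESeq2. None of the 9 was among these. All 9 Log2FC values were above 0, from 0.003 for Slc1a2 to 0.29 for Glul, with a median of 0.23 against 0.00468 for all genes. Of all genes tested, 51.2% were above 0. The 9 values come from the same 14 mice and are not independent. Glul had 11056, 26316 and 31532 in WT obese and 24180, 28293 and 32739 in WT obese+RvE1 mice (95% interval of the Log2FC -0.13 to 0.72). The lowest WT obese value was that of replicate 4. Without that mouse Glul was at 0.11 and Axin2 at -0.09, in place of 0.16.

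In KO obese+RvE1 vs KO obese mice, 0 of 14207 genes passed (0%), with 1179 at an unadjusted p-value under 0.05, 0 by edgeR and 17 by DESeq2. Of the 9 genes, 0 passed by any of these tools, and Lgr5 and Slc1a2 had an unadjusted p-value under 0.05. Lgr5 had 104, 167 and 298 in KO obese and 164, 224 and 376 in KO obese+RvE1 mice, where 3 of 7 treated mice lay above all untreated mice (Log2FC = 0.66 ± 0.24, unadjusted p-value = 0.0151, adjusted p-value = 0.557). Slc1a2 had 7812, 9005 and 9962 in KO obese and 5382, 7596 and 9806 in treated mice, of which 4 of 7 lay below all untreated mice (Log2FC = -0.33 ± 0.14, unadjusted p-value = 0.0358, adjusted p-value = 0.579). Glul ranged more widely with RvE1 in KO mice, from 16936 through 24994 to 39070, so that 3 treated mice lay above and 3 below all 7 KO obese mice, which ran from 19981 to 33348 (Log2FC = -0.20 ± 0.22, adjusted p-value = 0.80). KO obese+RvE1 replicate 1 was above its group mean for 9 of the 9 genes, by 1.05 for Axin2 and 0.94 for Rnf43 on the log2 scale. KO obese replicate 2, which received vehicle, was also above its own group mean for 9 of the 9 genes. The Log2FC values of the other 6 genes lay between 0.01 and 0.53. The RvE1 effect differed between genotypes for 0 of the 9 genes and 0 of 13059 genes (0%), with 311 at an unadjusted p-value under 0.05 and 0 by edgeR and by DESeq2. The differences (KO minus WT) of Glul and Slc1a2 were -0.50 (95% interval -1.12 to 0.13) and -0.33 (-0.71 to 0.05).

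**Figure D2:**
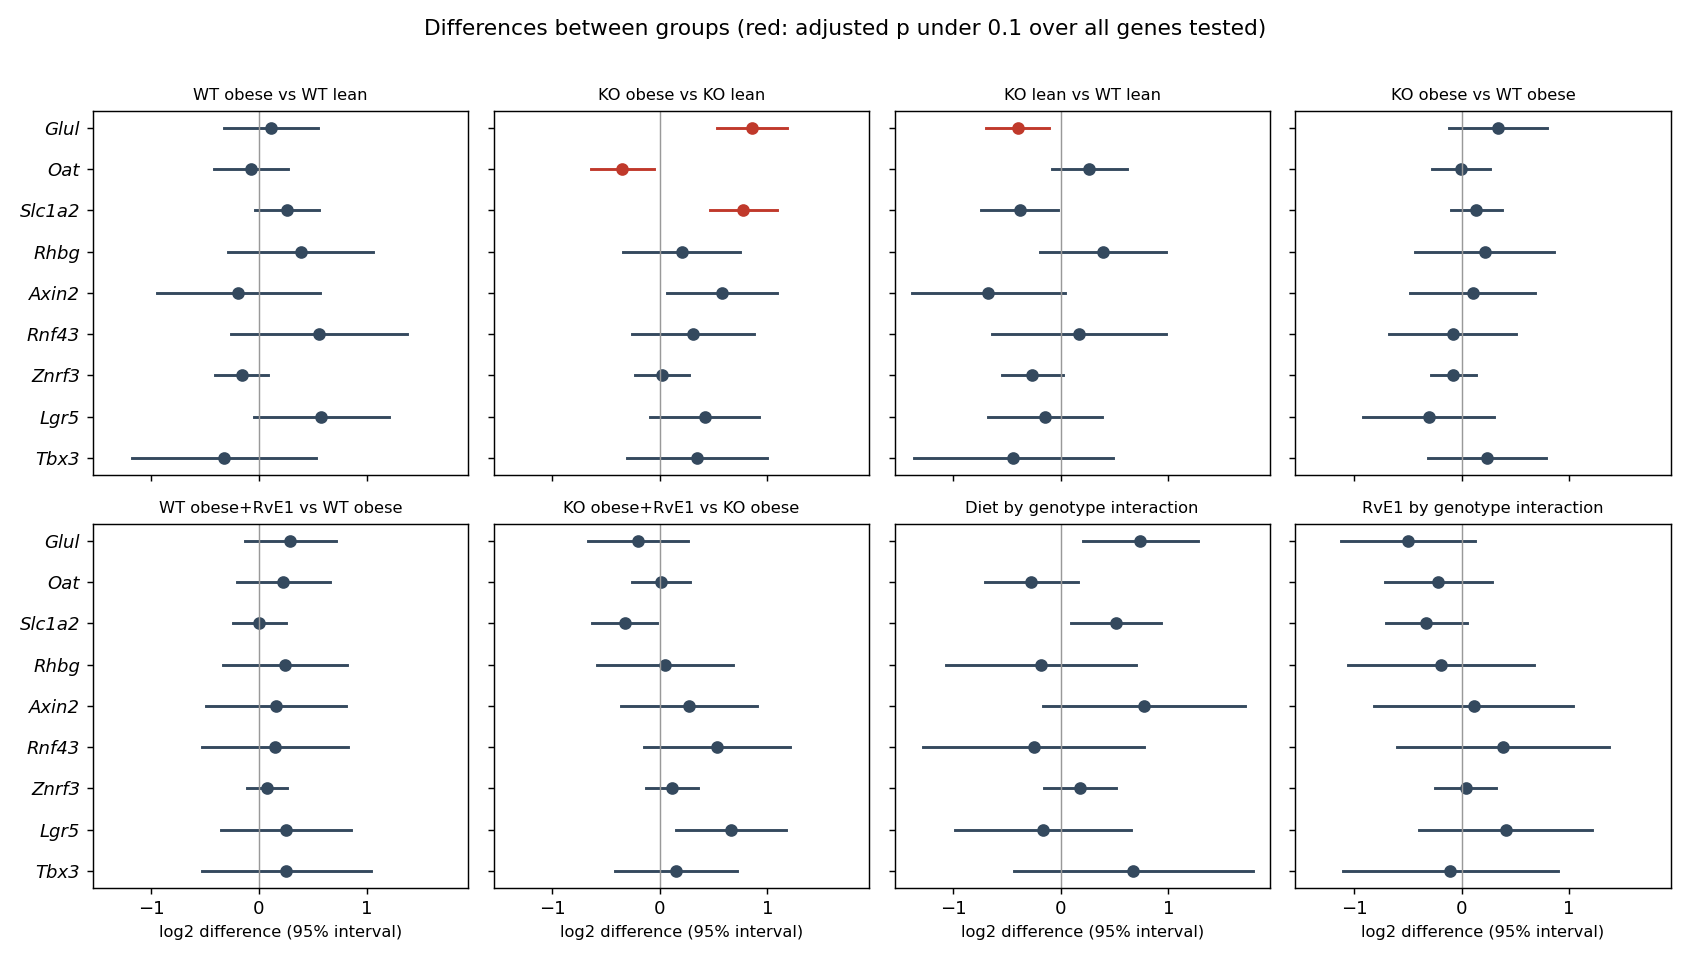
Log2FC of the 9 genes in the 6 comparisons and both interactions. Each panel is 1 comparison, each point a Log2FC and each bar its 95% interval from limma, with red marking an adjusted p-value under 0.1. Red points appear only for Glul, Slc1a2 and Oat in KO obese vs KO lean mice and for Glul in KO lean vs WT lean mice.

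Upstream members of the pathway, its antagonists and other feedback targets were described from lists of 8 to 11 genes. Among 9 ligands and R-spondins, of which 8 were tested in the comparisons given here, Wnt5b passed in 3. Wnt5b, a ligand known mainly for signaling without beta-catenin, had a median normalized count of 108.5 in WT lean and 303.3 in WT obese mice (Log2FC = 1.34 ± 0.24, adjusted p-value = 0.00572), of 464.5 in KO obese against 306.8 in KO lean mice (0.65 ± 0.22, 0.0585), and of 112.5 in WT lean and 278.6 in KO lean mice of their common table (0.95 ± 0.24, 0.0422). Wnt2, a ligand of central vein and sinusoidal endothelium, was higher in KO lean mice, with a median of 132.8 against 72.5 in WT lean mice (0.85 ± 0.22, 0.0417), in the comparison in which Glul was lower. In KO obese mice of the diet table Wnt2 had a median of 134.1, against 146.2 in KO lean mice. Rspo3 and Wnt9b, which drive the pericentral program from the central vein, did not pass in any of the 6 comparisons or in either interaction. In KO lean vs WT lean mice Wnt9b was at 0.64 ± 0.27 (adjusted p-value = 0.147).

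Among 9 receptors and co-receptors, 0 passed in WT obese vs WT lean mice. In KO obese vs KO lean mice Fzd4 was higher (Log2FC = 0.91 ± 0.28) and Fzd5 lower (-0.44 ± 0.11), and in KO lean vs WT lean mice the co-receptor Lrp6 was lower, with medians of 1612 in KO and 2793 in WT mice (-0.82 ± 0.22). Of 11 genes of the destruction complex and beta-catenin, 5 were higher and 1 lower in KO obese vs KO lean mice, where 24.1% of all genes passed. Apc (0.77 ± 0.21) and Gsk3b (0.73 ± 0.22), both needed to degrade beta-catenin, rose, as did Dvl3 (0.56), Btrc (0.34) and Ctnnb1 (0.29), and Dvl1 (-0.71 ± 0.12), which relays the receptor signal, fell. Ctnnb1 encodes beta-catenin itself. In KO lean vs WT lean mice Dvl1 (0.35) was higher and Dvl3 (-0.72), Apc (-0.69) and Gsk3b (-0.61) were lower, with the other 7 of the 11 short of the threshold, where 16.3% of all genes passed. The latter values again rest on the same KO lean libraries. Of the co-activators, Bcl9l rose (0.60) and Pygo2 fell (-0.34) in KO obese vs KO lean mice, and Bcl9l fell (-0.78) in KO lean vs WT lean mice. Among 10 antagonists and other feedback targets, Lhpp was lower in WT obese vs WT lean mice (-0.67 ± 0.13) and in KO obese vs KO lean mice (-1.18 ± 0.17), and no other of the list passed in these comparisons. The median Log2FC of these lists lay between -0.28 and 0.29 in the 3 comparisons.

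Other genes of the pericentral zone were then described. Of 11 such genes, 5 rose and 0 fell in WT obese vs WT lean mice, with a median Log2FC of 0.61, and 6 rose and 0 fell in KO obese vs KO lean mice, with a median of 0.55, where 6.27% and 24.1% of all genes passed. In WT mice Cyp2a5 (1.77 ± 0.43), the bile acid enzyme gene Cyp7a1 (1.17 ± 0.36) and Lect2 (0.61 ± 0.18) rose, as did Nr1i3 (0.94) and Ahr (0.62). In KO mice Slc13a3 (1.33 ± 0.31), a dicarboxylate transporter, Lect2 (0.91 ± 0.20) and the xenobiotic receptor Nr1i3 (0.60 ± 0.10) rose, as did Cyp2a5 (2.20), Ahr (0.69) and Cyp2e1 (0.55). Genes beyond the first 3 of a list were named after their values were seen, since the counts were small. Of 15 periportal genes 0 passed in WT obese vs WT lean mice, and in KO obese vs KO lean mice Pigr (0.79) and Hsd17b13 (0.43) rose and Arg1, the last enzyme of the urea cycle, fell (-0.51 ± 0.19). In the KO lean vs WT lean comparison 0 of the 11 pericentral genes passed, with a median of -0.14, and Arg1 was higher (0.52 ± 0.15). In the other 5 comparisons, with both interactions counted, 0 genes of these lists passed.

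**Figure D3:**
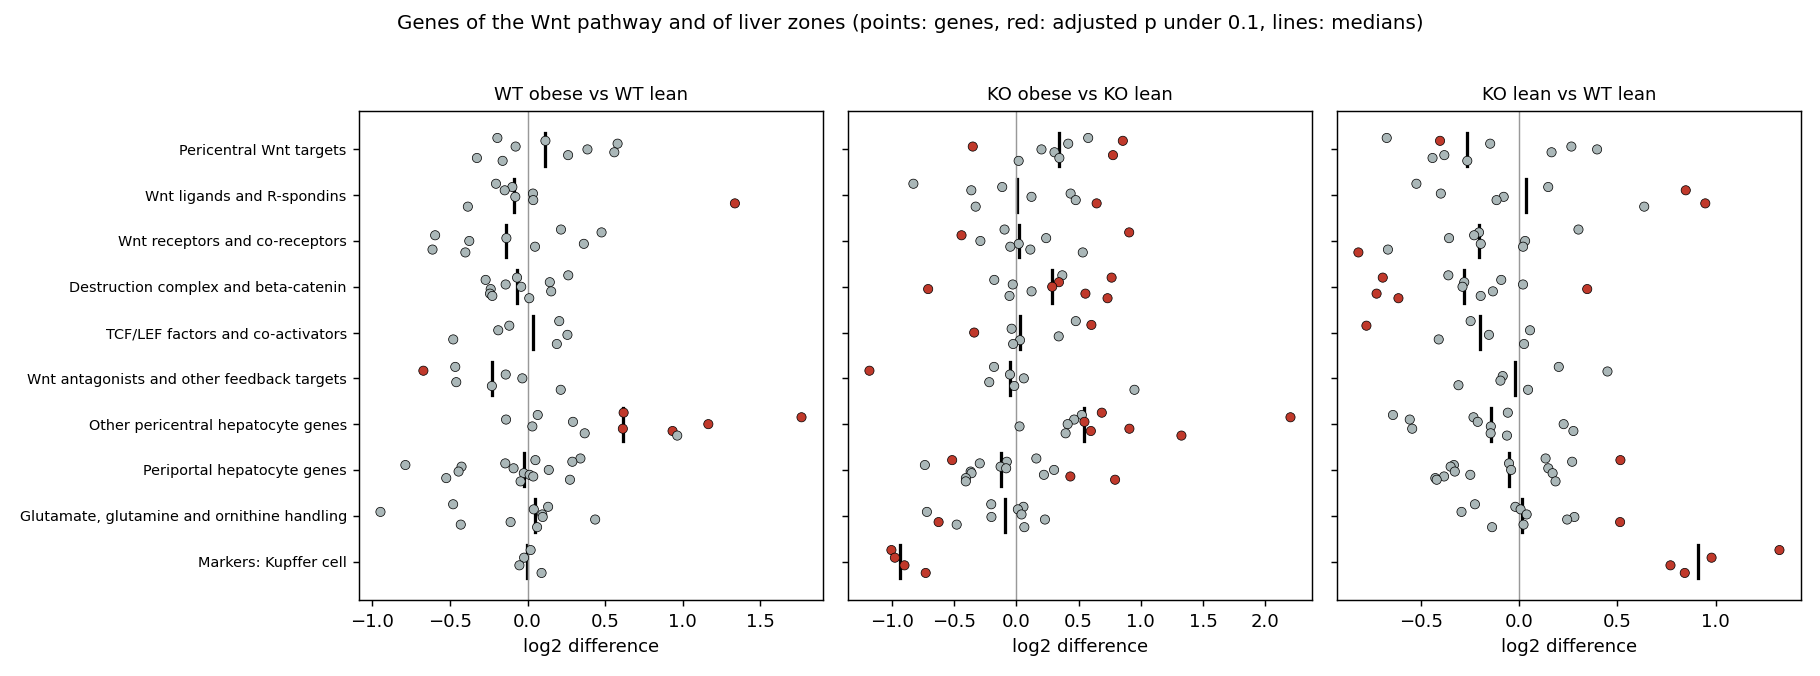
Log2FC of the genes in the pathway and zonation lists. Each point is 1 gene, placed by its Log2FC in WT obese vs WT lean, KO obese vs KO lean or KO lean vs WT lean mice, with rows for the 9 genes, the lists and the Kupffer cell markers. Red marks an adjusted p-value under 0.1, black lines are medians, and the range of the x axis differs between panels. The other pericentral genes sit above 0 in 10 of 11 cases in WT and 11 of 11 in KO mice with the high fat diet. Of all genes tested, 50.5% in WT and 49.8% in KO mice were above 0. The genes of a list were measured in the same mice, so their values are not independent.

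The genes also varied between mice of the same group. The standard deviation within groups, on the log2 scale, was 0.787 for Tbx3, 0.736 for Rnf43, 0.668 for Axin2, 0.589 for Rhbg and 0.545 for Lgr5, against a median of 0.287 for all genes. It was 0.367 for Glul, 0.324 for Oat, 0.274 for Slc1a2 and 0.2 for Znrf3. Among the regulators of the pathway, Rnf43 thus varied most and Znrf3 least, and the transporter Rhbg lay among the more variable genes. The variation was also divided by the opening number of the mouse identifier, whose meaning the labels do not give. The share between such numbers was 72.4% for Rnf43, 67% for Tbx3 and 29.5% for Glul, with 48.1% for the median gene and 33.3% given by the degrees of freedom alone, so the Glul share was below that level.

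Deviations from the group means over 42 mice were correlated for all 36 pairs of the 9 genes, with permutation within groups and BH adjustment over the pairs. A total of 12 pairs passed an adjusted p-value of 0.1, 10 with a positive and 2 with a negative r. The share of other gene pairs with such r was not determined. By r with Glul, Slc1a2 ranked 521 and Axin2 1242 among 10800 genes with a mean of at least 50 normalized counts. The mice share libraries across genes, so depth and RNA quality act on both genes of a pair. Axin2 and Tbx3 were closest (r = 0.84, rho = 0.85, both adjusted permutation p-values 0.00018 and 0.00012, r = 0.84 without the 2 mice farthest in Axin2), and r was above 0 in all 6 groups. The raw p-value of 1e-05 was the smallest that the 100000 permutations could give. Tbx3 and Rnf43 (r = 0.77, rho = 0.78, adjusted permutation p-values 0.00018 and 0.00012, r = 0.74 without 2 mice) and Axin2 and Rnf43 (r = 0.68, rho = 0.79, 0.00027 and 0.00012, r = 0.79 without 2 mice) joined them. With the means of the identifier numbers removed, r was 0.84, 0.69 and 0.74 for these pairs.

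Glul and Slc1a2, the pair that rose with the diet in KO mice, also varied together within groups (r = 0.56, rho = 0.55, adjusted permutation p-values 0.00655 and 0.009, r = 0.49 without the 2 mice farthest in Glul). The r was above 0 in all 6 groups, from 0.07 to 0.91, and 0.81 with identifier means removed. Lgr5 varied with Rnf43 (r = 0.66, rho = 0.69, adjusted permutation p-values 0.00024 and 0.00018, r = 0.66 without 2 mice), but r was 0.28 with identifier means removed and then did not pass. Oat varied inversely with Tbx3 (r = -0.46, rho = -0.50, adjusted permutation p-values 0.0317 and 0.0158, r = -0.38 without 2 mice). Without the WT obese+RvE1 group the r of Oat and Tbx3 was -0.30 and did not pass. A total of 8 pairs passed with identifier means removed, 6 of them among the 12. With equal read totals 24 pairs passed, 10 of them among the 12. Glul and Axin2 passed as well (r = 0.45, rho = 0.37, adjusted permutation p-values 0.033 and 0.0697), with r = 0.29 without the 2 mice farthest in Glul.

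**Figure D4:**
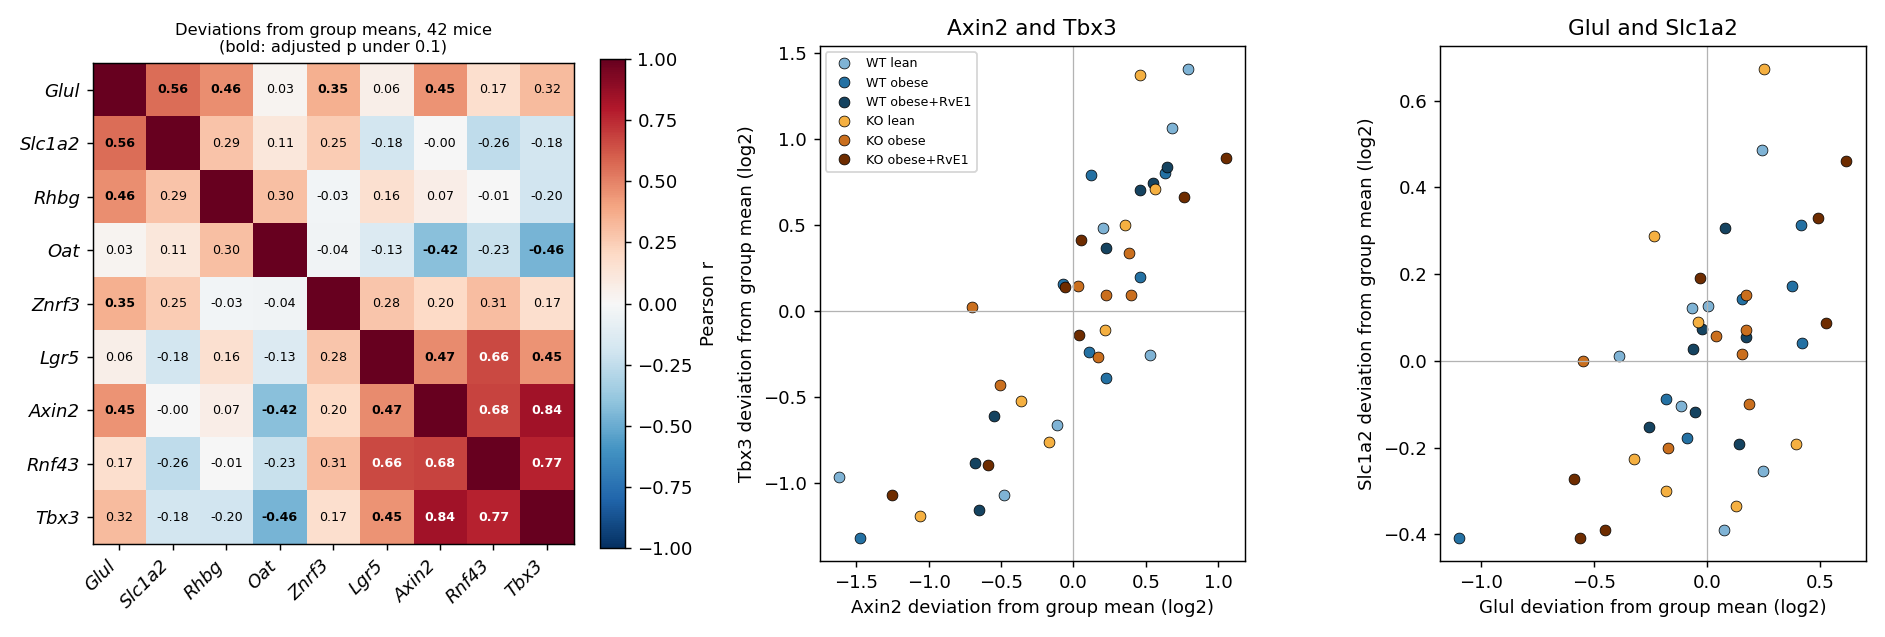
Covariation of the 9 genes within groups. The heatmap gives Pearson r of the deviations from group means over 42 mice for each pair (bold: adjusted p-value under 0.1), and the scatter plots show the deviations (log2 scale) of Axin2 and Tbx3 and of Glul and Slc1a2, 1 point per mouse. Axin2, Tbx3 and Rnf43 form the darkest block, with r between 0.68 and 0.84.

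The genes whose deviations were most like those of Glul and Axin2 were sought among 10800 genes with a mean of at least 50 normalized counts, as a description. For Glul these were Smarca4 (r = 0.79), Vwa8 (0.78), Iars2 (0.78), Cs (0.77) and Gfm1 (0.76), over 42 mice. Slc1a2 ranked 521 for Glul, and the rest of the 9 ranked from 1147 for Rhbg to 4996 for Oat. For Axin2 they were Brd3 (0.90), Camsap3 (0.90), Zmynd8 (0.89), Nod1 (0.86) and Kank1 (0.86). None of these 10 genes is among the 9. Of the 9, Tbx3 ranked 13 for Axin2, Rnf43 529, Lgr5 1896, Glul 2093, Znrf3 3830, Rhbg 4679, Slc1a2 5138 and Oat 8064.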

How the data were processed

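Total liver RNA of 42 mice was sequenced as read pairs from TruSeq stranded libraries, although the labels give the molecule as polyA RNA. The authors aligned reads to mm10 with Bowtie2, which does not split reads over introns, and counted pairs per gene with featureCounts. No source used here gives versions, the annotation or the use of strand, so reads of a gene and an overlapping antisense gene may not be told apart. The deposited signal values are normalized counts, that is counts divided by DESeq2 size factors set for the 14 libraries of each of 6 tables. Groups were therefore compared within a table. The deposited tables also hold the authors' mean values, log2 fold changes and p-values, which were not used. Whole reads were recovered (100% of values within 0.1 reads, 0 differences between tables). The smallest chi-square per gene between libraries of a group was 24.3 over 126 pairs, so none was counted as a repeat.

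Each comparison was fitted with limma 3.58.1 in R 4.3.3 (eBayes with a trend after lmFit) on log2(normalized count + 1), two-sided, for genes with a mean of at least 5, with BH adjustment over the table and a threshold of 0.1. Interactions were contrasts of within-table fold changes. For levels and correlations, recovered reads of 42 libraries were put on 1 scale by median-of-ratios size factors over 12742 genes. Alternatives were pseudocounts of 0.5 and 4, no filter, TMM scaling, equal read totals, library quality weights, the identifier number (17 numbers) as a random effect, an adjusted p of 0.05, a fold above 1.5, edgeR 4.0.16, DESeq2 1.42.0 and leaving out each mouse. Coordinates and exon lengths came from GENCODE M21 on GRCm38. Replicate numbers only name mice, which are separate animals. The 9 genes, the lists and the tests were chosen with earlier results of these data known, and the rule for each list was to name at most the 3 genes with the smallest adjusted p under 0.1 in a comparison. Further genes of the destruction complex, pericentral and Kupffer cell lists, and Rspo3 and Wnt9b, were named after their values were seen. All 9 genes were named throughout, and for Glul and Axin2 the 5 genes with the highest r. The fits were tested on simulated data. The result of 1 list is not reported here.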

Additional observations from a re-analysis of the deposited data

Results flagged for a closer look

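In each of 54 sets of 7 mice (9 genes in 6 groups), the lowest and highest mouse were compared with the others by Dixon's ratio, the gap to the nearest mouse over the range. A total of 3 sets exceeded the critical value for 7 mice at the 95% level, where chance gives about 1 in 20. Glul was low in WT obese replicate 4 (ratio 0.602), at 13.36 on the log2 scale against 14.28 to 14.88 in the other 6 mice. Axin2 was low in the same mouse (ratio 0.666), at 6.25 against 7.65 to 8.36. Znrf3 was low in WT lean replicate 3 (ratio 0.631), at 8.34 against 8.85 to 9.14. The values of WT obese vs WT lean mice without WT obese replicate 4 were 0.30 for Glul and 0.05 for Axin2, and 0.12 and -0.19 with it.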

How the results depend on the processing

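In KO lean vs WT lean mice, where 1 of the 9 genes passed, the number was 2 with equal read totals, library quality weights or DESeq2, and 0 with the identifier number as a random effect, an adjusted p under 0.05 or a fold above 1.5. It ranged from 0 to 2 when 1 mouse was left out. For the diet by genotype interaction, where 0 passed, the number was 2 with library quality weights and 1 with DESeq2, and 0 to 2 without 1 mouse, with 2 only without KO lean replicate 5. In KO obese vs KO lean mice it stayed between 2 and 4 without 1 mouse. The numbers of correlated pairs were 12, with 24 under equal read totals and 8 with identifier means removed, and 9 to 15 when a group was left out. In the other comparisons the number of the 9 genes that passed stayed at 0 under every alternative run. With the random effect 1057 genes in all passed in KO obese vs KO lean mice, 279 in WT obese vs WT lean and 3 in KO lean vs WT lean mice. No value that passed in either fit changed sign. Sign changes were seen in 64 values of 18 results that did not pass, none larger than 0.324 (log2). The cause of these differences was not tested. No paired analysis was possible because the replicate numbers were given in accession order and the groups compared share at most 1 identifier number (that of KO obese replicate 4 and KO obese+RvE1 replicates 6 and 7). Depth limits Rhbg and Lgr5 most, with as few as 30 and 52 reads in a library.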
